A study of Mus musculus with 6 samples.

Results

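Translation initiation factors bring the small ribosomal subunit, the initiator tRNA and an mRNA together at a start codon. Their transcripts were followed here in morula-like aggregates, a stem-cell model of the mouse embryo at compaction, after treatment with PFOA (perfluorooctanoic acid, a persistent fluorinated surfactant). The members are all genes of the deposited expression table whose symbol, in upper case, begins with EIF and a digit from 1 to 6, leaving out the eIF2 kinases (EIF2AK). This gave 53 of 18388 genes. They were taken by name, but the list was chosen with earlier results of these data known, so counts of members are a description. The treated libraries are PFOA 1, PFOA 2 and PFOA 3, and the controls are the vehicle libraries DMSO 1, DMSO 2 and DMSO 3. Both groups were aggregates of expanded pluripotent stem cells of the mouse, which can contribute to embryonic and extraembryonic tissue, cultured in N2B27LCDM medium and then in an induction medium, at 37 °C with 5% CO2 and 20% O2. The sources used here do not state the dose and duration of PFOA, the origin of the cells or whether replicates were separate cultures. P-values therefore reflect only how much these 6 libraries varied, and that variation may be technical.

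As background, eIF1, eIF1A and eIF3 keep the small subunit open for scanning, and eIF2 delivers the initiator tRNA in a complex with GTP that eIF2B recharges after each round. The cap of the mRNA is bound by eIF4E, which the scaffold eIF4G links to the RNA helicase eIF4A and, through eIF3, to the ribosome. The 4E-binding proteins compete with eIF4G for eIF4E and are released by mTOR signalling, while phosphorylation of the eIF2 alpha subunit under stress blocks eIF2B. Preimplantation embryos and pluripotent cells regulate protein synthesis through both routes. The symbol rule also takes in proteins with other main roles: Eif4a3 belongs to the exon junction complex, Eif6 keeps the large ribosomal subunit from joining too early, Eif5a acts mainly in elongation and termination, and Eif1-ps3 is a pseudogene.

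The series title names c-MYC, a transcription factor that binds the E-box CACGTG and whose classical targets include Eif4e, Eif4a1, Eif4g1 and Eif2s1. The 250 bases before the start of these 4 genes and of Eif2b2, the member with the smallest p-value, are therefore shown from RefSeq (build GRCm38.p6), 5′ to 3′ on the strand of the gene, with each CACGTG in capitals. This build differs from the GRCm39 named in the submitters' processing notes, and no value was joined to these coordinates.
Eif4e, chr3:138527018-138527267, plus strand: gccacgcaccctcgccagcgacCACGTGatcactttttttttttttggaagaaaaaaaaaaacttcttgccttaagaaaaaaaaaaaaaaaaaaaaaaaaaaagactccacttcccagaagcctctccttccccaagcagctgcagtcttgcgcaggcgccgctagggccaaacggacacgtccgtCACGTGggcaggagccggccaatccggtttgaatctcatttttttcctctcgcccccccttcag
Eif4a1, chr11:69672424-69672673, minus strand: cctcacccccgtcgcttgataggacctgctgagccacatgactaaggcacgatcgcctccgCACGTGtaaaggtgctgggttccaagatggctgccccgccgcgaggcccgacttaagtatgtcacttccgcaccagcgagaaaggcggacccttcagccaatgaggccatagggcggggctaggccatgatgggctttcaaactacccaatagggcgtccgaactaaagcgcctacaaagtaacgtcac
Eif4g1, chr16:20672477-20672726, plus strand: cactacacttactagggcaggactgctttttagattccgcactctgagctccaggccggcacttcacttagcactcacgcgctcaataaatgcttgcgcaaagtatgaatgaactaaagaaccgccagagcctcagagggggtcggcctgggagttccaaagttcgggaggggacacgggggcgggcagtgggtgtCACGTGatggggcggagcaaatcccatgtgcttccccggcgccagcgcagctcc
Eif2s1, chr12:78861822-78862071, plus strand: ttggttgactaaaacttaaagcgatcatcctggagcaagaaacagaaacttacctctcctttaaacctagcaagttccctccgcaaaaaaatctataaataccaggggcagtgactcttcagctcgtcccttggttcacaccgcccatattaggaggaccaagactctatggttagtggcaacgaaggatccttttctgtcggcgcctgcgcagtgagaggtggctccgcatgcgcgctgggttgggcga
Eif2b2, chr12:85219231-85219480, plus strand: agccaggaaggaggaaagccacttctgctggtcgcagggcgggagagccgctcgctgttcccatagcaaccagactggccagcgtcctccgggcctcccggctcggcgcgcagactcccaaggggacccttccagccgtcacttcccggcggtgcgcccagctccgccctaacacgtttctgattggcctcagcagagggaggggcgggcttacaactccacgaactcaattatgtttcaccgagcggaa
For Eif4e the window before the second of its RefSeq starts is shown, and for the other genes that before the first listed start. The Eif4e window holds 2 matches, the first of them 228 bases before the start. Matches before the first Eif4e start are not given here. The windows of Eif4a1 and Eif4g1 hold 1 match each, at 189 and 54 bases before the start, and those of Eif2s1 and Eif2b2 hold 0. Over windows of 300 bases (250 before and 50 after a start), CACGTG was found for 10 of the 40 members with a RefSeq promoter (25.0%), against 8.1% of 27025 genes and 12.1% of the 9562 tested genes with a promoter. The motif reads the same on both strands, so 1 search covers both. The 10 genes are Eif1b, Eif3a, Eif3f, Eif3k, Eif4a1, Eif4e, Eif4g1, Eif4h, Eif5a and Eif5a2. Their median log2 fold change was −0.053, with 7 of 10 lower in PFOA, and that of the 30 other members with a promoter was −0.0090, with 18 of 30 lower. A match is a description of these letters and not a measured binding site, and the windows were not matched for base composition.

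The values are FPKM (fragments mapped, scaled to transcript length and library total), so levels can be compared between genes. FPKM summed to between 585739 and 630644 in PFOA libraries and between 641975 and 657239 in DMSO libraries, and the read depth is unknown. All 10 markers fixed for pluripotent cells passed the filter on low values, 5 being higher and 5 lower (median log2 fold change 0.019). Pou5f1 was at 849, 890 and 917 FPKM in PFOA and at 965, 1018 and 955 FPKM in DMSO, all lower, and Tfcp2l1 at 29.3, 25.7 and 25.8 FPKM in PFOA and at 22.4, 22.4 and 24.1 FPKM in DMSO, all higher. The 9 fibroblast markers summed to between 60.5 and 69.9 FPKM in PFOA and between 66.9 and 76.3 FPKM in DMSO, most of it Vim. Of these, Dcn was at 5.77 to 6.57 FPKM in PFOA and 6.77 to 8.5 FPKM in DMSO, Thy1 at 5.78 to 7.5 FPKM in PFOA and 6.75 to 9.41 FPKM in DMSO, and the other 6, among them the collagens, at or under 2.7 FPKM. Of the 7 fibroblast markers tested, 6 were lower in PFOA (median log2 fold change −0.14). The 6 trophectoderm markers summed to between 489 and 559 FPKM in PFOA and between 506 and 577 FPKM in DMSO, mostly the keratins Krt8 and Krt18. The 6 primitive endoderm markers summed to between 11.6 and 12.1 FPKM in PFOA and between 10.04 and 11.02 FPKM in DMSO, which did not overlap through Lama1 alone (7.48 to 7.98 FPKM in PFOA, 5.98 to 6.43 FPKM in DMSO), while Gata4 was at 1.6 to 1.66 FPKM in PFOA and 1.70 to 1.86 FPKM in DMSO. The 4 measured of 5 2-cell-like markers summed to between 49.6 and 51.8 FPKM in PFOA and between 48.5 and 50.6 FPKM in DMSO. Of them 1 was higher, Zscan4c, at 21.9 to 24.0 FPKM in PFOA and 18.5 to 21.5 FPKM in DMSO. The other 3 were lower and overlapped between groups. In bulk RNA, fewer cells of a type and less RNA per cell cannot be told apart, and the part of these marker levels in the results below was not tested.

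No initiation factor passed the test, and among those tested the group means differed by at most 14.6% (Eif3a). Of the 53 members, 50 averaged 1 FPKM or more and were tested. In PFOA 17 were higher and 33 lower, and their median log2 fold change was −0.023, against −0.0065 over all 11876 tested genes, of which 52.4% were lower. The main fit did not rescale the libraries, although the FPKM total was lower in every PFOA library than in every DMSO library. The direction of the members thus depends on scaling. Under quantile normalization the median turned, to 0.030 with 33 members above and 17 below 0, while with libraries scaled to 1 median it was −0.018. As a share of all FPKM the members averaged 1.62% in PFOA and 1.59% in DMSO, with PFOA 2 inside the DMSO range. No member passed the threshold (0 of 50 with a Benjamini-Hochberg adjusted p under 0.05 in limma, the lowest being 0.118), and over all genes 0 were called higher (0%) and 1 lower (0.00842%), Bri3, a small transmembrane protein. Over all genes 94 were called without PFOA 2, 52 without DMSO 3, and 0 without PFOA 3, DMSO 1 or DMSO 2, while in each of these fits 0 members were called. At an unadjusted p under 0.05 in limma, 5 members were higher (10%), against 8.56% of all tested genes, and 11 were lower (22%), against 12.5%. Those higher were Eif3a, Eif3j1, Eif4g1, Eif4g3 and Eif5b, and those lower were Eif1, Eif2s1, Eif2b2, Eif2b4, Eif3i, Eif3j2, Eif3m, Eif4e2, Eif4ebp1, Eif5a and Eif6. The 3 PFOA libraries lay wholly above the 3 DMSO libraries for 7 members (14%), against 13.5% of all tested genes, and wholly below for 12 (24%), against 13.7%. The counts of members at an unadjusted p under 0.05 depended on single libraries: without DMSO 1 they were 1 higher and 3 lower, without DMSO 2 they were 3 and 3, and without PFOA 1 they were 2 and 6. Without PFOA 2 and without PFOA 3 the counts higher were 2 and 3. The shares of all tested genes in these fits are not given here, so these counts lack that comparison. Fold changes are on the log2(FPKM + 1) scale, and the members' ranged from −0.19 to 0.20.

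**Figure D1:**
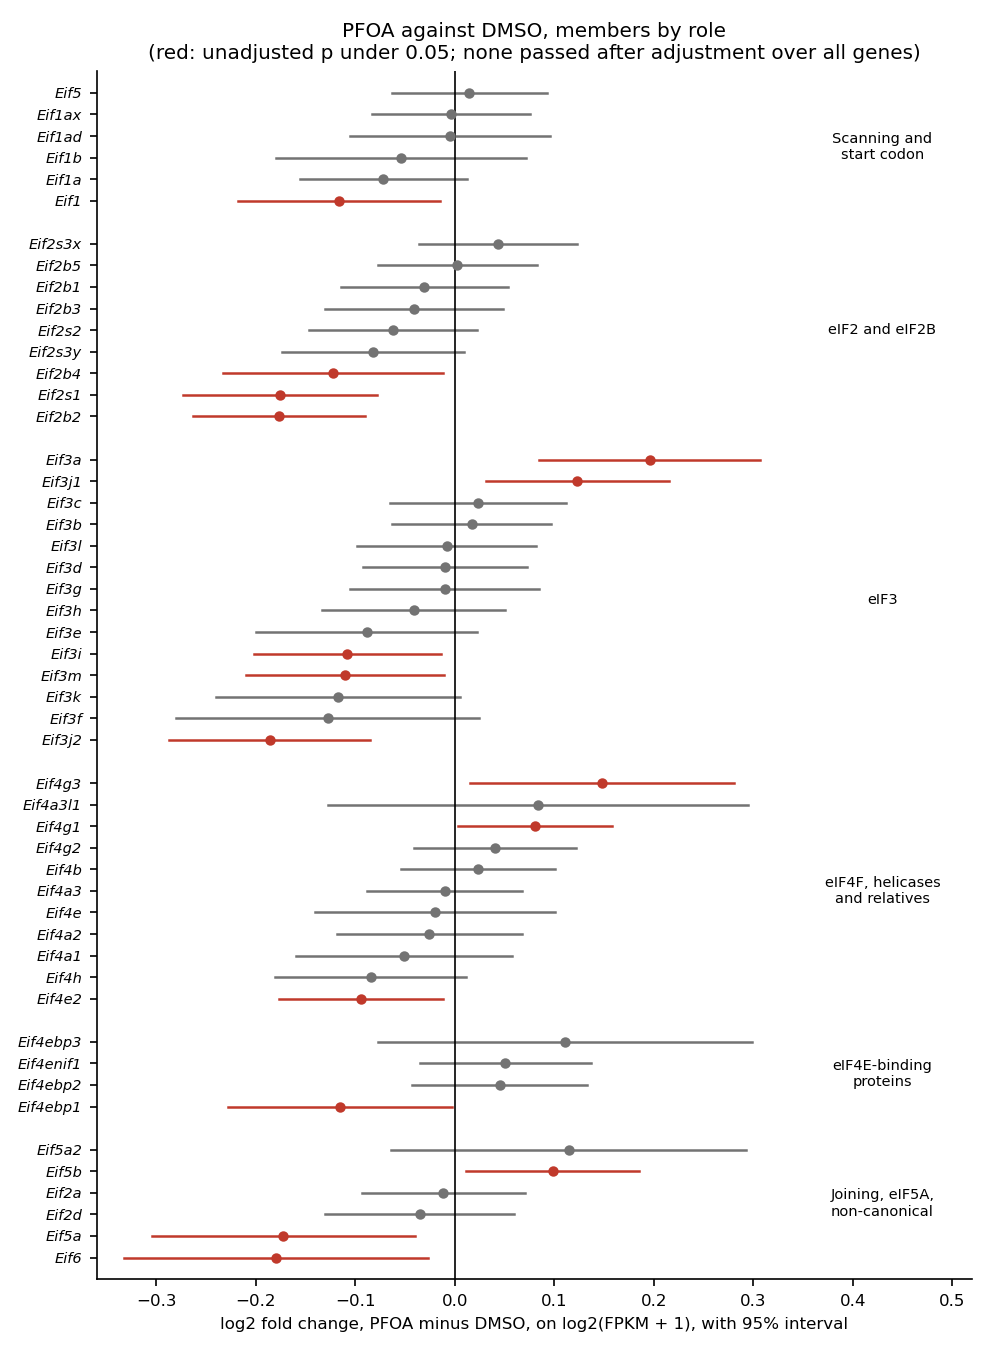
log2 fold change of PFOA over DMSO on log2(FPKM + 1) for the 50 tested members, grouped by role, with points for the limma estimate and lines for its 95% confidence interval (3 libraries a group). Intervals of the 5 members above 0 and the 11 below 0 at an unadjusted p under 0.05 are in red, and the other 34 intervals cross 0.

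The libraries did not contribute evenly. Per-library medians over the tested members, relative to the DMSO mean on the log2 scale, were −0.048, −0.018 and −0.0057 in PFOA 1, 2 and 3 and 0.0075, 0.014 and −0.012 in DMSO 1, 2 and 3, so DMSO 3 lay within the range of the PFOA libraries. Of the 3 DMSO libraries, DMSO 3 was the one nearest to the PFOA mean for 25 of 50 members (50%), against 44.5% of all tested genes. Among those under an unadjusted p of 0.05 it was so for 14 of 16 members (87.5%), against 58.9% of 2505 genes. PFOA 1 was the PFOA library farthest from the DMSO mean for 32 of 50 members (64%), against 54% of all tested genes. Among those under an unadjusted p of 0.05 it was so for 11 of 16 members (68.8%), against 70.3% of 2505 genes. Together the 53 members made up 1.66%, 1.59% and 1.62% of all FPKM in PFOA 1, 2 and 3 and 1.59%, 1.59% and 1.59% in DMSO 1, 2 and 3, a difference of 0.032 percentage points (two-sided exact permutation p = 0.3, where 0.1 is the smallest that 3 against 3 libraries can give). The difference was 0.0148 percentage points without PFOA 1 and 0.0489 without PFOA 2. The summed FPKM of the members was lower in PFOA (9698, 10012 and 10092) than in DMSO (10432, 10439 and 10179), as was the total of all genes.

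**Figure D2:**
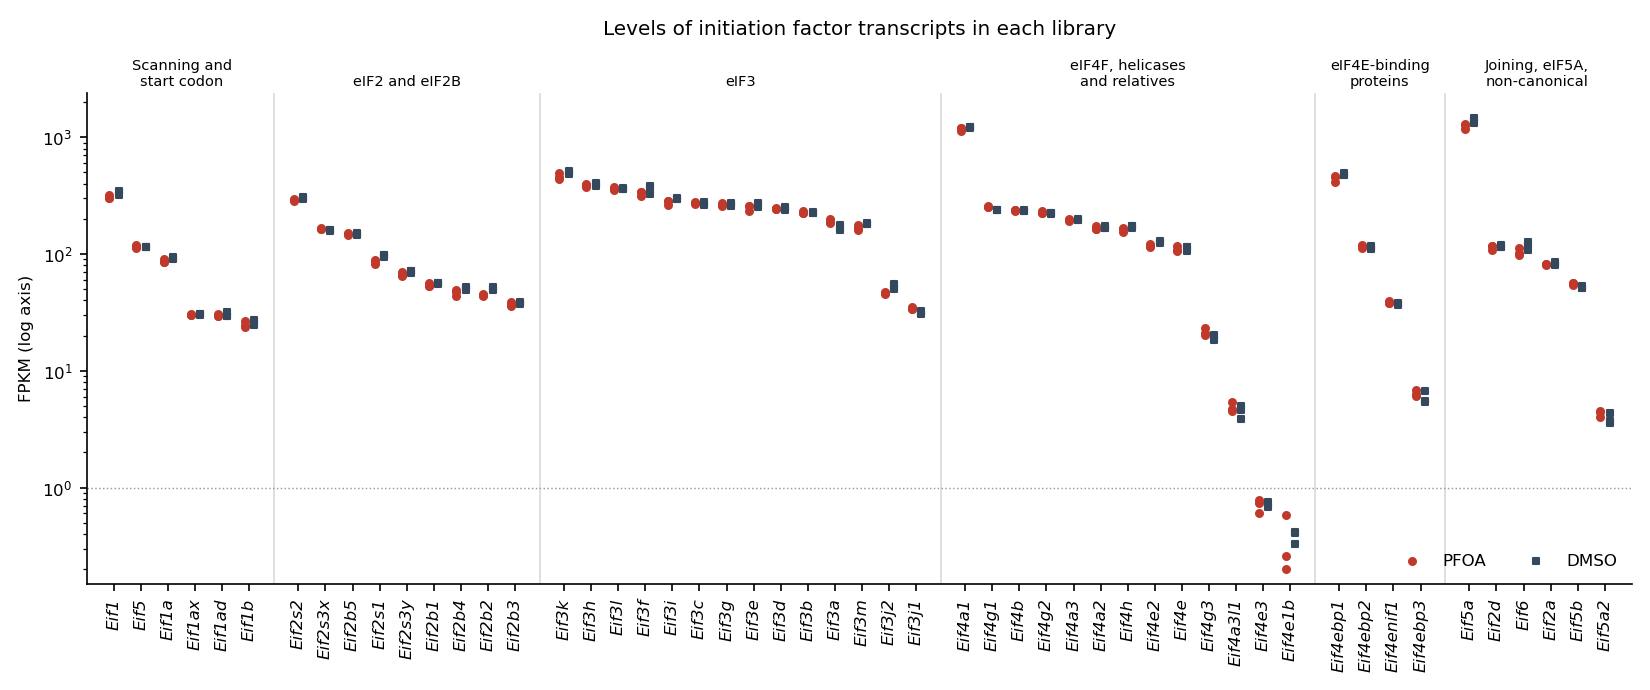
FPKM on a log axis of the 52 members other than the pseudogene, ordered by level within each role, with 1 point per library (PFOA circles left, DMSO squares right). Levels reach from under 1 FPKM to that of Eif5a, and the dotted line marks the mean of 1 FPKM required for a test, which Eif4e3 and Eif4e1b did not reach.

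The factors of scanning and start codon choice, taken with their relative Eif1ad, had a median log2 fold change of −0.030. Of them 1 was higher and 5 were lower. Eif1, which holds the scanning complex open and enforces start codon stringency, was the most abundant of them. It was at 303, 320 and 299.6 FPKM in PFOA and at 344, 337 and 319 FPKM in DMSO. The lowest DMSO library lay just under the highest PFOA library, so the groups overlapped (log2 fold change −0.12, SE 0.045, limma adjusted p = 0.197). Its paralog Eif1b was far less abundant, at 23.9, 24.9 and 26.9 FPKM in PFOA and at 27.3, 24.9 and 26.5 FPKM in DMSO, with PFOA 3 inside the DMSO range and the other PFOA libraries below it. Of the genes for eIF1A, which sits in the decoding site of the small subunit, Eif1a averaged 87.7 ± 2.7 FPKM in PFOA and 92.2 ± 1.4 FPKM in DMSO, and the X-linked Eif1ax 30.4 ± 0.31 FPKM in PFOA and 30.5 ± 0.16 FPKM in DMSO (SD, n = 3 each). For Eif1ax the 95% confidence interval of the log2 fold change ran from −0.083 to 0.075. Eif5, which triggers GTP hydrolysis on eIF2 at the start codon, was at 116 ± 2.7 FPKM in PFOA and 114 ± 0.64 FPKM in DMSO. Eif1ad, a protein with an eIF1A-like domain, was at 29.9 ± 0.62 FPKM in PFOA and 30.0 ± 1.4 FPKM in DMSO. Of the 50-nt words of the Eif1 transcripts, 31.6% also occur in other genes, so its reads may have been divided with those genes.

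The genes of eIF2 and of its exchange factor eIF2B held several of the lowest fold changes, with 2 of 9 higher and 7 lower and a median of −0.062. Eif2b2, the beta subunit of eIF2B, had the smallest p-value of all members. It was at 43.9, 44.4 and 45.7 FPKM in PFOA and at 52.2, 50.3 and 49.3 FPKM in DMSO. Every PFOA library was lower than every DMSO library, and the difference of 11.8% was larger than the spread within either group, but it did not pass after adjustment (log2 fold change −0.18, SE 0.038, limma adjusted p = 0.118). Eif2s1, the eIF2 alpha subunit that stress kinases phosphorylate, was at 81.5, 88.2 and 86.9 FPKM in PFOA and at 98.8, 97.8 and 93.4 FPKM in DMSO. Again the groups did not overlap, with PFOA 1 the lowest library (log2 fold change −0.18, SE 0.043, limma adjusted p = 0.1275). Eif2b4, the delta subunit of eIF2B, was at 43.9, 48.8 and 47.7 FPKM in PFOA and at 52.3, 51.5 and 49.2 FPKM in DMSO, where PFOA 2 came within 0.5 FPKM of DMSO 3 without overlap (log2 fold change −0.12, limma adjusted p = 0.204). The catalytic epsilon subunit Eif2b5 had close means, of 149 ± 2.0 FPKM in PFOA and 148.5 ± 3.5 FPKM in DMSO (95% confidence interval of the log2 fold change −0.078 to 0.083). Eif2b1 was at 54.5 ± 1.7 FPKM in PFOA and 55.7 ± 0.56 FPKM in DMSO, and Eif2b3 at 37.1 ± 1.3 FPKM in PFOA and 38.2 ± 0.61 FPKM in DMSO. The eIF2 beta gene Eif2s2 was the most abundant of these 9, at 289 ± 7.7 FPKM in PFOA and 301 ± 3.5 FPKM in DMSO (SD, n = 3 each).

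The gamma subunit of eIF2, which binds GTP and the initiator tRNA, is encoded in mice by an X-linked and a Y-linked gene. Eif2s3x was at 168, 162 and 165 FPKM in PFOA and at 157, 162 and 162 FPKM in DMSO, with the PFOA libraries all above the DMSO libraries by as little as 0.25 FPKM (log2 fold change 0.043, limma adjusted p = 0.502). Eif2s3y was at 70.0, 65.2 and 66.3 FPKM in PFOA and at 72.1, 72.2 and 69.3 FPKM in DMSO, which overlapped (log2 fold change −0.082, limma adjusted p = 0.278). The Y-linked copy made up 29.4%, 28.7% and 28.7% of the sum of both in PFOA and 31.5%, 30.8% and 29.97% in DMSO. The sum itself was 232 ± 5.5 FPKM in PFOA and 231 ± 2.6 FPKM in DMSO. Of the 50-nt words of Eif2s3x, 36.2% occur in other genes, and of Eif2s3y 0.0%.

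The eIF3 complex, the largest initiation factor and the platform that binds the small subunit, was the group with the most members tested, 14. The median log2 fold change was −0.026, 4 being higher and 10 lower, and it turned to 0.060 under quantile normalization and to 0.0305 with a length trend removed. The eIF3 subunits b, c, d, g and l differed by less than 2% between the group means, each with overlapping libraries. Eif3a, the scaffold of the complex, stood at the upper end of all members. It was at 198, 186 and 186 FPKM in PFOA and at 159, 163 and 176 FPKM in DMSO. The groups did not overlap, with the gap set by DMSO 3 (log2 fold change 0.20, SE 0.049, limma adjusted p = 0.1275). The subunits i, m and k had lower means in PFOA. Eif3i was at 277 ± 12 FPKM in PFOA and 298 ± 1.1 FPKM in DMSO, and Eif3m at 169 ± 8.8 FPKM in PFOA and 182 ± 1.7 FPKM in DMSO (SD, n = 3 each). Eif3k, the most abundant eIF3 transcript, was at 436, 495 and 456 FPKM in PFOA and at 488, 498 and 518 FPKM in DMSO, with PFOA 2 inside the DMSO range. The ratio of Eif3a to Eif3k was 0.46, 0.38 and 0.41 in PFOA and 0.33, 0.33 and 0.34 in DMSO. It sets a long transcript (5125 nt) over a short one (909 nt) and is not corrected for length. With a length trend removed, the log2 fold change was 0.15 for Eif3a and 0.030 for Eif3k, against 0.20 and −0.12 before. Eif3f ran from 312 to 339 FPKM in PFOA and from 324 to 379 FPKM in DMSO, and Eif3e and Eif3h overlapped between groups as well, at 249 ± 13 and 386 ± 9.2 FPKM in PFOA and 265 ± 8.5 and 397 ± 11 FPKM in DMSO.

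Mice carry 2 genes for the loosely bound subunit eIF3j, which helps to place mRNA in the decoding site and to recycle ribosomes. Eif3j1 was at 33.9, 35.3 and 34.0 FPKM in PFOA and at 30.6, 31.4 and 32.6 FPKM in DMSO, with the PFOA libraries all higher (log2 fold change 0.12, SE 0.040, limma adjusted p = 0.159). Eif3j2 was at 47.6, 46.1 and 45.5 FPKM in PFOA and at 55.4, 53.1 and 50.3 FPKM in DMSO, with the PFOA libraries all lower (log2 fold change −0.19, SE 0.044, limma adjusted p = 0.127). Eif3j2 thus made up 58.4%, 56.6% and 57.2% of the sum of both genes in PFOA and 64.5%, 62.9% and 60.7% in DMSO. The sum was 81.5, 81.4 and 79.4 FPKM in PFOA and 86.0, 84.4 and 82.9 FPKM in DMSO. These values are uncertain, because 91.8% of the 50-nt words of Eif3j2 and 54.8% of those of Eif3j1 occur in other genes, mainly in each other, and the authors' counting could split such reads. Eif2s2, Eif3e, Eif3h, Eif3m and Eif4a3 also share at least 20% of their words with other genes and are uncertain in the same way.

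**Figure D3:**
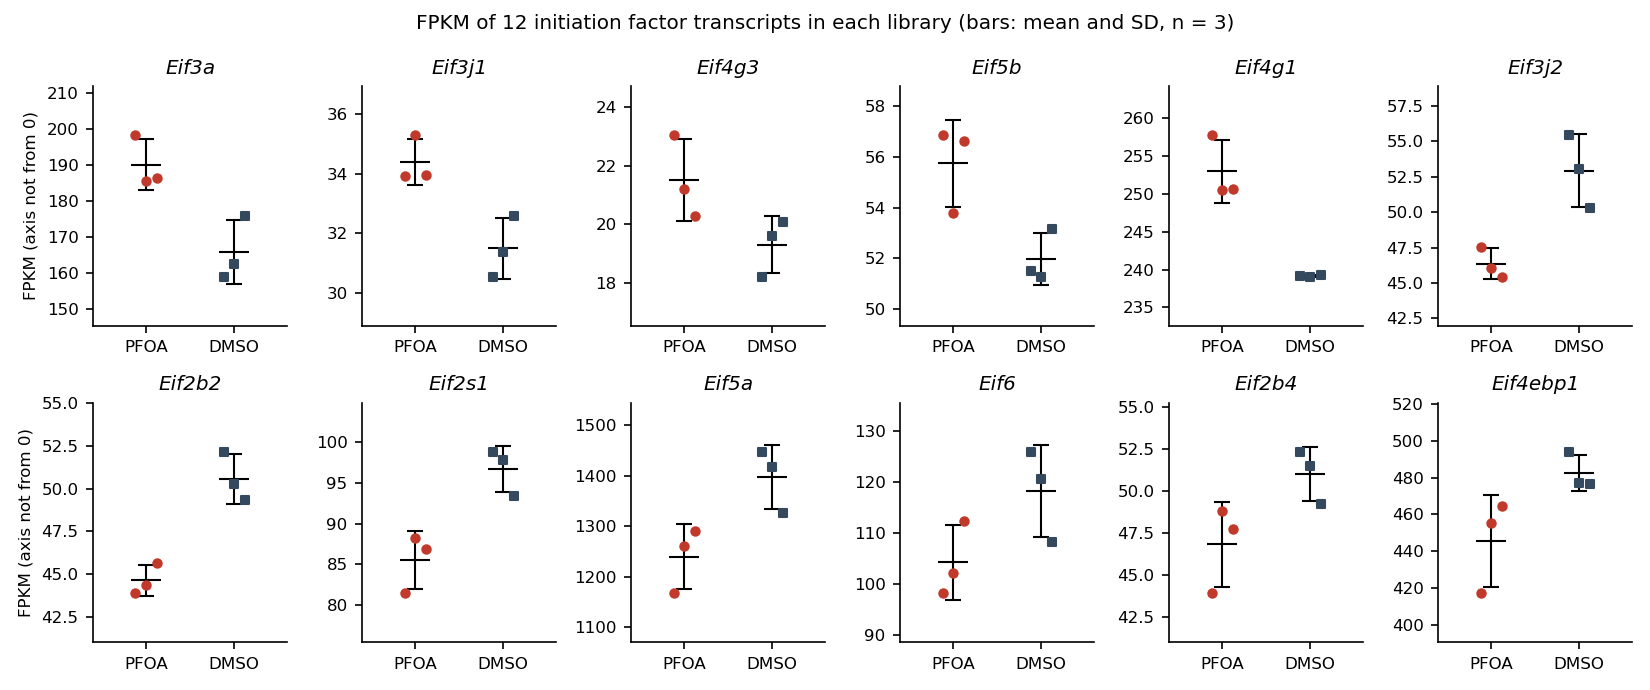
FPKM in each library for the 5 members higher and 7 of the 11 lower at an unadjusted p under 0.05, PFOA left and DMSO right, with bars for the mean and SD (n = 3 each) and axes that do not start at 0. The groups do not overlap except for Eif6, and for most of these genes DMSO 3 is the DMSO library nearest to PFOA.

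Of the 11 tested genes of the cap-binding complex eIF4F, its helicases and their relatives, 5 were higher and 6 lower, with a median of −0.010 that turned to 0.078 under quantile normalization, to 0.0080 with a length trend removed, to 0.0027 without PFOA 1 and to 0.016 without PFOA 2. The cap-binding protein Eif4e was at 109, 105 and 118 FPKM in PFOA and at 115, 116 and 106 FPKM in DMSO, fully overlapping (log2 fold change −0.020, 95% confidence interval −0.14 to 0.10, limma adjusted p = 0.86). The scaffold Eif4g1 was at 258, 251 and 251 FPKM in PFOA and at 239, 239 and 239 FPKM in DMSO. Its PFOA libraries were all higher and its DMSO libraries agreed within 0.07 FPKM (SD), yet the difference did not pass (log2 fold change 0.081, SE 0.034, limma adjusted p = 0.223). The second scaffold Eif4g3 was at 23.0, 21.2 and 20.3 FPKM in PFOA and at 18.2, 19.6 and 20.1 FPKM in DMSO, also without overlap (log2 fold change 0.15, SE 0.058, limma adjusted p = 0.203). Eif4g2, which lacks an eIF4E site and drives cap-independent initiation, was at 229 ± 5.4 FPKM in PFOA and 223 ± 2.7 FPKM in DMSO. The helicase Eif4a1 was among the highest of all members, at 1124, 1208 and 1200 FPKM in PFOA and at 1209, 1231 and 1219 FPKM in DMSO, where the groups were 0.1 FPKM from overlapping (log2 fold change −0.051, limma adjusted p = 0.565). Its values are uncertain, since 65.3% of its 50-nt words occur in other genes, led by the pseudogene Eif4a-ps4. Its paralog Eif4a2 was at 167 ± 6.6 FPKM in PFOA and 170 ± 3.7 FPKM in DMSO, and Eif4a3 at 196 ± 4.1 FPKM in PFOA and 197 ± 0.45 FPKM in DMSO.

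Of the helicase cofactors, Eif4h was at 153, 166 and 164 FPKM in PFOA and at 172, 167 and 173 FPKM in DMSO, with no overlap but a gap of under 1 FPKM, and Eif4b was at 238 ± 2.9 FPKM in PFOA and 234 ± 3.0 FPKM in DMSO. Eif4e2, a cap-binding homolog that represses translation, was at 118, 116 and 121 FPKM in PFOA and at 128, 128 and 123 FPKM in DMSO, all lower in PFOA (log2 fold change −0.094, SE 0.036, limma adjusted p = 0.197). Eif4a3l1, a relative of Eif4a3, was at 4.84 ± 0.45 FPKM in PFOA and 4.52 ± 0.59 FPKM in DMSO. Under the filter stayed 3 members: the oocyte paralog Eif4e1b (0.20 to 0.58 FPKM in PFOA, 0.33 to 0.42 FPKM in DMSO), Eif4e3 (0.61 to 0.78 FPKM in PFOA, 0.68 to 0.75 FPKM in DMSO) and the pseudogene Eif1-ps3, listed at 0 in every library except PFOA 3, where it was 0.59 FPKM.

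The repressors that bind eIF4E differed among themselves, 3 of 4 being higher, and had a median log2 fold change of 0.048. Eif4ebp1, the main mTOR-regulated repressor, was the most abundant, at 417, 455 and 464 FPKM in PFOA and at 494, 477 and 476 FPKM in DMSO. All PFOA libraries were lower (log2 fold change −0.12, SE 0.049, limma adjusted p = 0.229). Eif4ebp2 was at 119, 118 and 113 FPKM in PFOA and at 116, 110 and 113 FPKM in DMSO, and Eif4ebp3 at 6.89, 6.30 and 6.02 FPKM in PFOA and at 5.49, 5.45 and 6.67 FPKM in DMSO, both overlapping. Eif4enif1 (4E-T), which carries eIF4E to the nucleus and to processing bodies, was at 38.7 ± 0.84 FPKM in PFOA and 37.3 ± 0.90 FPKM in DMSO. Eif4ebp1 outnumbered Eif4e in FPKM by a ratio of 3.82, 4.33 and 3.94 in PFOA and of 4.31, 4.12 and 4.49 in DMSO, so the ratios overlapped. Of the 50-nt words of Eif4ebp3, 65.5% occur in another gene.

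Eif5a, whose hypusine residue eases the joining of difficult amino acids, was the most abundant member, at 1168, 1262 and 1290 FPKM in PFOA and at 1447, 1418 and 1327 FPKM in DMSO. The groups did not overlap, though DMSO 3 lay closer to PFOA 3 than to DMSO 2 (log2 fold change −0.17, SE 0.058, limma adjusted p = 0.164). Its paralog Eif5a2 was at 4.49, 4.40 and 4 FPKM in PFOA and at 3.60, 4.38 and 3.72 FPKM in DMSO. The GTPase Eif5b, which joins the large subunit to the small one, was at 56.8, 53.8 and 56.6 FPKM in PFOA and at 51.5, 51.3 and 53.2 FPKM in DMSO, with all PFOA libraries higher (log2 fold change 0.099, SE 0.038, limma adjusted p = 0.199). Eif6 was at 98.2, 102 and 112 FPKM in PFOA and at 126, 120.5 and 108 FPKM in DMSO, where DMSO 3 was lower than PFOA 3, so the groups overlapped (log2 fold change −0.18, SE 0.067, limma adjusted p = 0.188). Of the non-canonical factors, which can bring initiator tRNA without eIF2, Eif2a was at 81.7 ± 1.2 FPKM in PFOA and 82.4 ± 2.2 FPKM in DMSO, and Eif2d was at 114 ± 4.6 FPKM in PFOA and 117 ± 2.9 FPKM in DMSO (SD, n = 3 each). These 6 genes had a median of −0.023 (2 higher, 4 lower), which turned to 0.028 under quantile normalization.

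Transcript length moved with the fold changes of the members, as it did with those of all genes. Of the 49 tested members with a known longest transcript, 17 of 18 under 2000 nt were lower in PFOA (median log2 fold change −0.086), against 82.9% of 3073 genes of that length (−0.10). The exception was Eif4ebp3. From 2000 to under 4000 nt 14 of 20 members were lower (−0.033), against 57% of 4658 genes. Of the 11 members of at least 4000 nt 2 were lower, Eif1ax and Eif4e, and 9 higher (0.081), against 22.2% lower of 3810 genes (0.066). All 5 members that were higher at an unadjusted p under 0.05 have transcripts of at least 5125 nt. Length and fold change had a Spearman's rho of 0.607 across the 49 members and 0.598 across 11541 genes, as a description, since genes share the same 6 libraries and are not replicates.

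With a trend on length removed in each library, the member median was 0.0068, with 27 members above and 23 below 0. No member passed after adjustment (0 of 50 in limma). At an unadjusted p under 0.05, 5 of 50 members were higher, against 6.39% of all tested genes, and 4 of 50 lower, against 7.05%. Eif3a stayed higher (log2 fold change 0.15, SE 0.040), and Eif2s1 (−0.18, SE 0.040), Eif3j2 (−0.15, SE 0.041), Eif4e2 (−0.098, SE 0.031) and Eif2b2 (−0.090, SE 0.032) stayed lower at an unadjusted p under 0.05, with limma adjusted p-values from 0.207 to 0.303. The other 4 long members moved toward 0, to 0.066 for Eif3j1, 0.042 for Eif4g3, 0.018 for Eif4g1 and −0.0029 for Eif5b. Eif1, Eif3i and Eif3m went to −0.0070, 0.018 and 0.0020, while Eif5a, Eif6 and Eif4ebp1 went to −0.073, −0.085 and −0.056. The other 4 members on the higher side at an unadjusted p under 0.05 were Eif3g (0.12), Eif3h (0.070), Eif4a3 (0.084) and Eif4ebp3 (0.28). Their longest transcripts are short, at 1101, 1295, 1509 and 744 nt, and whether the trend was removed too strongly there was not tested.

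**Figure D4:**
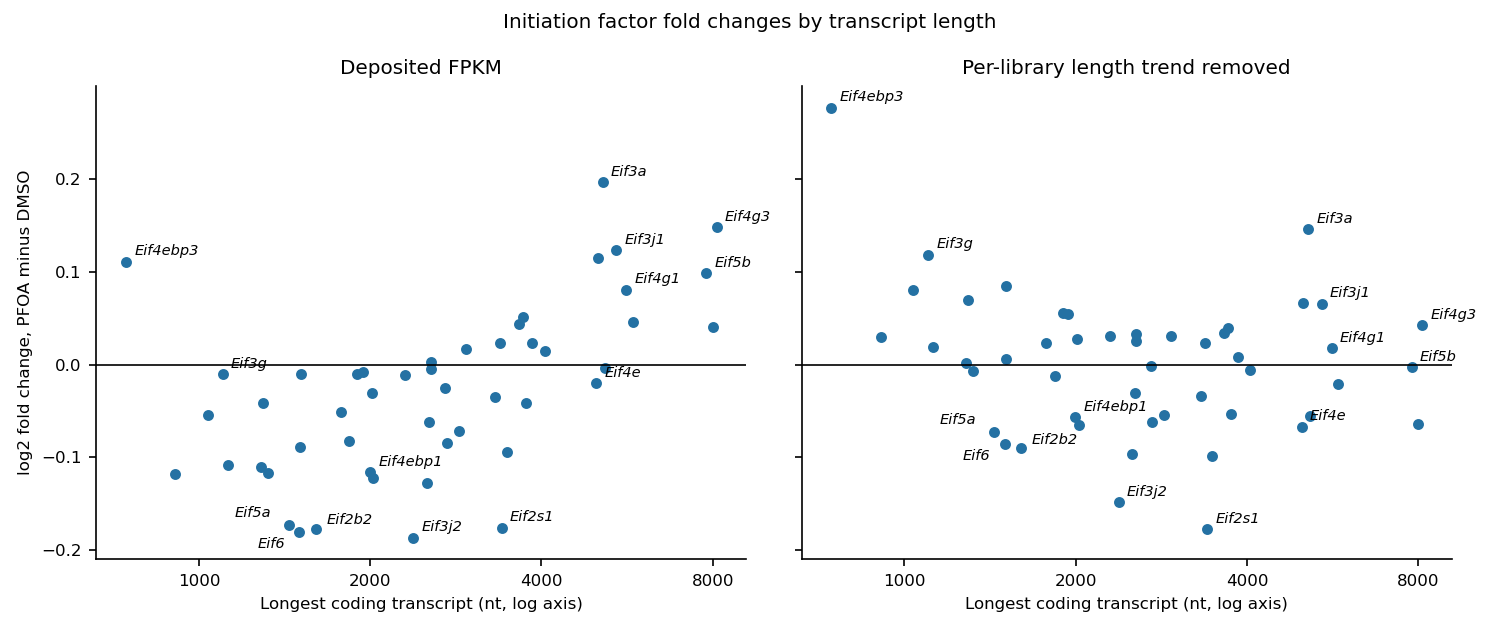
log2 fold change of PFOA over DMSO against the length of the longest coding transcript (nt, log axis) for the 49 members with a length, from the deposited FPKM (left) and with a per-library length trend removed (right). On the left 17 of 18 members under 2000 nt lie below 0 and 9 of 11 of at least 4000 nt above it. On the right Eif3a stays high and Eif2s1 and Eif3j2 stay low, while short members such as Eif4ebp3, Eif3g and Eif1b lie above 0.

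Of 33 regulators and partners of initiation outside the symbol rule, 23 were higher and 10 lower in PFOA. Their median log2 fold change was 0.027, and 0 passed in limma after adjustment. At an unadjusted p under 0.05, 7 were higher (21.2%, against 8.56% of all tested genes) and 1 was lower (3.03%, against 12.5%), Mknk2, a kinase of eIF4E, at 39.6 ± 0.99 FPKM in PFOA and 42.8 ± 1.5 FPKM in DMSO. Mknk2 was named after its value was seen. Larp1, which binds and represses mRNAs of ribosomal proteins under mTOR control, was at 72.6 ± 3.8 FPKM in PFOA and 64.9 ± 0.21 FPKM in DMSO. Gcn1, an activator of the eIF2 kinase GCN2, was at 31.5 ± 0.79 FPKM in PFOA and 28.3 ± 1.5 FPKM in DMSO, and Cyfip1, an eIF4E-binding partner of FMRP, at 41.2 ± 1.4 FPKM in PFOA and 37.4 ± 1.7 FPKM in DMSO. These regulators have a median longest transcript of 3929 nt, against 2554 nt for the tested members and 3048 nt for all tested genes.

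Among 14 cytosolic elongation and termination factors, 4 were higher and 10 lower, and their median log2 fold change was −0.037. In limma 0 passed after adjustment. At an unadjusted p under 0.05, 0 were higher (8.56% of all tested genes were) and 3 lower (21.4%, against 12.5%). Dohh, which completes the hypusine of eIF5A, was at 65.7 ± 3.9 FPKM in PFOA and 80.8 ± 5.6 FPKM in DMSO (log2 fold change −0.29, SE 0.061, limma adjusted p = 0.115). Eef1e1 of the tRNA synthetase complex was at 67.0 ± 4.8 FPKM in PFOA and 78.1 ± 2.8 FPKM in DMSO, and Eef1b2, an exchange factor of eEF1A, at 396 ± 28 FPKM in PFOA and 445.5 ± 26 FPKM in DMSO. Of 9 mitochondrial initiation and elongation factors, 3 were higher and 6 lower (median −0.082). Again 0 passed in limma after adjustment, and at an unadjusted p under 0.05, 0 were higher (against 8.56% of all tested genes) and 1 lower (11.1%, against 12.5%). The median longest transcript was 2522 nt in the cytosolic list and 2623 nt in the mitochondrial list, against 3048 nt over all tested genes. Tsfm, the exchange factor of mitochondrial EF-Tu, was at 32.9 ± 1.5 FPKM in PFOA and 36.7 ± 1.3 FPKM in DMSO. Gfm2, which recycles mitochondrial ribosomes, was at 23.5 ± 0.90 FPKM in PFOA and 22.1 ± 0.27 FPKM in DMSO, and Mrrf, its partner, at 8.33 ± 0.19 FPKM in PFOA and 8.96 ± 0.29 FPKM in DMSO (SD, n = 3 each).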

How the data were processed

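Poly(A)-enriched RNA from 6 libraries (3 PFOA, 3 DMSO) was sequenced on a BGISEQ-500, from 1.2 µg of total RNA (integrity number above 8.0), per the labels' protocols. The authors deposited FPKM per gene and library, to 2 decimals. HISAT2 2.0.4, Bowtie2 2.2.5 and the build GRCm39 were used, per the submitters' processing notes. Which step each served, how reads were counted and on which annotation is not given in the sources used here. These values depend on the library's total and on transcript length, so a bias by length differs between genes. Of 7102 low values in 2093 genes, 24.6% lay within 0.15 of a whole multiple of the gene's lowest value, too few to recover whole reads for a count test.

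Groups come from the sample titles. The difference of PFOA from DMSO was tested with limma 3.58.1 in R 4.3.3, on log2(FPKM + 1), for the 11876 genes averaging 1 FPKM or more, two-sided, letting the prior variance follow mean expression, with Benjamini-Hochberg adjustment over all of them. The fit was also run on simulated data with independent errors and no length trend, so that run does not cover such a trend. Its outcome is not given here. Symbols were matched without regard to case (18240 matched, 148 did not). Lengths and shared 50-nt words (either strand) came from GENCODE M21 transcripts, on another build. The length trend was a lowess curve (span 0.3) per library. Words and promoter motifs were searched in Python 3.11.15. The naming rule took 12 preset members, up to 4 of smallest p and the most abundant of each role, paralog pairs, up to 3 genes of smallest p in each companion list and any gene passing over all genes. It named 32 members; the others were added so that each is accounted for. The members, lists and the rule were chosen with earlier results of these data known. Alternatives covered pseudocounts, filters, scaling, variance model, a replicate block, length and left-out libraries.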

Additional observations from a re-analysis of the deposited data

How the results depend on the processing

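In all 18 alternatives 0 members passed after adjustment over all genes. The difference in the share of all FPKM (0.032 percentage points) ran from 0.0148 without PFOA 1 to 0.0489 without PFOA 2, moves larger than the SD of the DMSO libraries (0.0034) and smaller than that of the PFOA libraries (0.034). Over all genes 1 was called, against 0 without the variance trend, without filtering low genes, with the length trend removed, or without both DMSO 1 and DMSO 2, 2 with library weights, and 0 to 94 when single libraries were left out (52 without DMSO 3 and 94 without PFOA 2). The replicate numbers did not pair the libraries (correlations of same-numbered deviations −0.11, −0.0095 and −0.14, and no library correlated best with its own number). With the replicate block, 0 genes were called over all genes, and at an unadjusted p under 0.05 there were 2 members higher and 5 lower. With the replicate block and the length trend removed together these counts were 0, 3 and 4. The shares of all tested genes at an unadjusted p under 0.05 in these fits are not given here, so the member counts lack that comparison.

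Members higher at an unadjusted p under 0.05 (5 of 50 as reported) were 9 of 50 under quantile normalization, against 11.5% of all tested genes. They were 3 without the variance trend, and 1 to 5 with single libraries left out (1 without DMSO 1, 3 without DMSO 2, 2 without PFOA 1, 2 without PFOA 2, 3 without PFOA 3). Members lower (11 of 50) were 4 of 50 under quantile normalization, against 9.38% of all tested genes, and 4 of 50 with the length trend removed, against 7.05%. They were 5 without the variance trend, and 3 to 10 with single libraries left out (3 without DMSO 1, 3 without DMSO 2, 6 without PFOA 1). The shares of all tested genes without the variance trend and with libraries left out are not given here, so those counts lack that comparison. Where DMSO 3 is the lone control, its spread is taken to be that of the remaining libraries, so members at an unadjusted p under 0.05 are not counted there.

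Under quantile normalization the median log2 fold change was 0.030 over the members, −0.018 for eIF2 and eIF2B, 0.060 for eIF3, 0.084 for the eIF4E-binding proteins, 0.078 for eIF4F and its helicases, 0.028 for joining, eIF5A and non-canonical factors, and −0.0020 for scanning factors. It moved all genes' median to 0.0100. With the length trend removed, with or without the replicate block, the medians were 0.0068 over the members, −0.031 for eIF2 and eIF2B, 0.0305 for eIF3, 0.0080 for eIF4F, 0.0095 for the eIF4E-binding proteins and −0.0067 for scanning factors. Without both DMSO 1 and DMSO 2 they were 0.0023 for eIF3 and −0.00079 for the eIF4E-binding proteins. With single libraries left out the median ran from −0.041 to −0.0078 over the members, from −0.026 to 0.016 for eIF4F, from −0.048 to −0.015 for scanning factors, from −0.048 to −0.012 for eIF3, from −0.038 to −0.0029 for joining, eIF5A and non-canonical factors, from 0.032 to 0.068 for the eIF4E-binding proteins and from −0.074 to −0.054 for eIF2 and eIF2B.

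Of 575 values for 32 named members, 541 kept their direction and none came past the threshold, while 34 changed sign, most of them near 0. Under quantile normalization these were Eif1ax (0.014), Eif2s2 (0.0015), Eif3k (0.025), Eif4a1 (0.078), Eif4a2 (0.059), Eif4e (0.023) and Eif4h (0.0014). With the length trend removed, with or without the replicate block, they were Eif1b (0.080), Eif3i (0.018), Eif3k (0.030), Eif4a1 (0.023), Eif4ebp2 (−0.021), Eif5 (−0.0064) and Eif5b (−0.0029). Scaling to 1 median turned Eif1ax (0.00073) and library weights Eif2b5 (−0.0017). Without both DMSO 1 and DMSO 2, Eif1ax was 0.0046, Eif4e 0.059 and Eif4ebp3 −0.053. With single libraries left out, Eif1ax ran from −0.012 to 0.00011, Eif2b5 from −0.012 to 0.021, Eif4e from −0.065 to 0.016 and Eif5 from −0.0034 to 0.030. The causes of these differences were not tested.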
